A study of Mus musculus with 6 samples.

Results

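Mitochondrial ribosomal protein genes were read out of the RNA sequencing values of peritoneal neutrophils from cGAS knockout mice. Members were the rows of the table whose symbol is Mrpl or Mrps followed by a number, without -ps, which gave 55 of the 38739 genes, 35 of the large subunit (Mrpl) and 20 of the small subunit (Mrps). All 55 had a value above 0 somewhere and so belonged to the 23049 genes tested. The annotation (GENCODE M39) holds 78 such protein-coding genes. The other 23 are not analysed here, and none of them lies on chromosomes 1 to 12, where 53 of the members lie. The remaining 2 members lie on chromosome 13.

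Mitochondria carry their own ribosome, which translates the few proteins encoded by mitochondrial DNA, all of them core subunits of the respiratory chain and ATP synthase. Its RNA comes from mitochondrial DNA, whereas all of its proteins are encoded in the nucleus, made in the cytosol and imported. Many of these proteins have a counterpart in the bacterial ribosome and others were added in mitochondria. Neutrophils are known for depending largely on glycolysis and for holding few mitochondria.

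There were 6 samples, 3 untreated and 3 given LPS, numbered 1 to 3 in each group. All came from cGAS-/- animals (C57B/L6 in the labels, male and 8 weeks old in the methods of the study), whose neutrophils were drawn into the peritoneum with thioglycolate, harvested after 2 h and kept for 2 h in medium alone or with LPS of Escherichia coli 026:B6. The labels give 500 ng/mL of LPS, and the methods state a lower dose for the sequenced cells. No sample from wild-type mice was among them, so the values describe the response to LPS in knockout cells only, and Cgas itself stood between 0.0286 and 0.307 in all 6 samples. Neither the labels nor the methods say whether the samples came from separate animals, so p-values measure the spread between these samples, which may be technical.

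Values were read here as TPM, a measure of transcript abundance per length. They behave as the mean over each gene's transcripts, scaled by a factor for each sample. They are called scaled TPM below. The number of reads behind them is unknown, so an exact 0 is given only as listed at 0. The averaging divides a gene by its number of transcripts, so an order of levels between genes depends on the annotation as well as on the RNA. Protein-coding genes held 21.6 to 29.0% of the summed values in untreated and 50.6 to 59.99% in LPS samples, and pseudogenes held 64.7 to 70.7% and 32.3 to 40.5%. For this reason fold changes are also given after each sample was divided by its protein-coding sum. Neutrophil markers (10 of 12 in the table, Ly6g and Retnlg not analysed here) summed to 9967 to 51851 in all samples, and markers of other cells were also present, as described with the sample-to-sample pattern of the members. In cell mixtures of this kind, fewer cells of a type and less RNA per cell cannot be told apart.

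There were 5 members that passed at least 1 of the 2 call rules used here, and the 250 bases before their start sites are shown because these are the genes on which the comparison turns. The sequences are those of RefSeq on GRCm38.p6, written 5′ to 3′ on the strand of the gene, with matches to the searched motifs in capitals on either strand. In Mrpl17 (chr7:105811088-105811337, minus strand) the capitals mark an ETS match (CCGGAAG) and an NRF1 match (GCGCA, any base, then GCGC), in Mrpl9 (chr3:94443086-94443335, plus strand) an NRF1 match, in Mrps12 (chr7:28741822-28742071, minus strand) 4 CCAAT boxes, in Mrps26 (chr2:130563507-130563756, plus strand) a CCAAT box, an NF-kappaB match (GGGA, any 3 bases, then TCC) and an ETS match, and in Mrpl41 (chr2:24975099-24975348, minus strand) 2 CCAAT boxes.
Mrpl17: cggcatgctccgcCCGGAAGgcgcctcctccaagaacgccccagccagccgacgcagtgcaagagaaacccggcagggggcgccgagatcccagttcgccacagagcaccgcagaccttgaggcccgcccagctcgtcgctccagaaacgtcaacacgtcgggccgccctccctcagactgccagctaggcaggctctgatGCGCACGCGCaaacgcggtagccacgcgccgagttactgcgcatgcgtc
Mrpl9: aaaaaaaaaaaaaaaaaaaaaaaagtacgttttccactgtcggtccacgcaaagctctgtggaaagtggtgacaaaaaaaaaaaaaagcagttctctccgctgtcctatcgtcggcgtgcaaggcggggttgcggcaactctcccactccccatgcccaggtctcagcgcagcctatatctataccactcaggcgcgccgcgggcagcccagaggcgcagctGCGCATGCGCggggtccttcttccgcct
Mrps12: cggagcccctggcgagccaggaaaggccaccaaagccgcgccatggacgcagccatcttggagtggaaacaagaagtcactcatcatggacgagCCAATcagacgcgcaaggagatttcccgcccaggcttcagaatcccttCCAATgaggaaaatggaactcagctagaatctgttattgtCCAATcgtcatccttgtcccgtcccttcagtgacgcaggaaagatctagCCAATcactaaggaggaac
Mrps26: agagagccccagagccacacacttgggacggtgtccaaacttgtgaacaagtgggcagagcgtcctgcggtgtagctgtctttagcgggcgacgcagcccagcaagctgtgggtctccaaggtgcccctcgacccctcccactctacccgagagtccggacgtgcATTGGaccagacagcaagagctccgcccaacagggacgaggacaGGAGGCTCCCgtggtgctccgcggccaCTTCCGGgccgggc
Mrpl41: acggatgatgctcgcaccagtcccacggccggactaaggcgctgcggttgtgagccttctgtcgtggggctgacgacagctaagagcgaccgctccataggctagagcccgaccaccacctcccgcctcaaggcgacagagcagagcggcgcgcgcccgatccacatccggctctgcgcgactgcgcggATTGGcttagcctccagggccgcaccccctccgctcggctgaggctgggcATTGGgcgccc

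NRF1 is known as an activator of nuclear genes for mitochondrial proteins, and ETS factors of the GABP type act on many of the same promoters. Promoters of 48 of the 55 members were matched by symbol. The NRF1 motif was found in 8 of the 48 (16.7%), 7 of 30 in the large and 1 of 18 in the small subunit, whereas 5.84% of 17491 protein-coding promoters and 4.23% of all 27025 promoters of the same length held it. The ETS motif was found in 12 (25%), against 10.2% of protein-coding promoters. The NF-kappaB motif was found in 1 member, Mrps26 (2.08%), against 4.67% of protein-coding promoters, the CCAAT box in 15 (31.2% against 39.5%) and the E-box CACGTG in 4 (8.33% against 7.61%). The YY1 motif (AAGATGG followed directly by CGG) was found in 1 of the 48 (2.08% against 0.463%). The cyclic AMP response element TGACGTCA was found in 0 of the 48, against 2.2% of protein-coding promoters. As written, none of these motifs is contained in another. Mrpl46 and Mrps11 are divergent neighbours on chromosome 7 whose 250-base windows share 41 bases. These matches describe letters in a window and do not show binding.

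The comparison of LPS with untreated samples asked how LPS changed these genes within 2 h. On the log2(scaled TPM + 1) scale, on which changes of low genes are understated, 41 of the 55 members had a higher mean with LPS, 27 of 35 in the large and 14 of 20 in the small subunit. The median log2 fold change was 0.88 for the large and 0.76 for the small subunit, against 0.01 over all genes tested, 0.04 over the 12754 protein-coding genes tested and 0.37 over the 6004 protein-coding genes with a mean of at least 1. In those 6004 genes 64.7% of the changes were positive. After division by the protein-coding sum, 34 members had a positive and 21 a negative change, with medians of 0.62 and 0.42, and the 6004 genes had a median of 0.02.

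Few members passed a test singly. The limits of the study were a log2 fold change beyond 2 with an unadjusted p under 0.01. With limma on all 23049 genes, 3 members rose at these limits (Mrpl17, Mrps12 and Mrps26) and 1 fell (Mrpl41). Of all genes, 1.69% rose and 1.31% fell. Of the 6004 protein-coding genes with a mean of at least 1, 295 rose and 45 fell. At a Benjamini-Hochberg adjusted p under 0.05 with no fold limit, 2 rose (Mrpl17 and Mrpl9) and 1 fell (Mrpl41), against 0.894% and 0.946% of all genes. Of the 6004 protein-coding genes, 150 rose and 43 fell by that rule. With the replicate number as a block, the same 4 members passed the limits of the study and, by limma, 0 passed the adjusted p, with 14 higher and 3 lower at an unadjusted p under 0.05. Over all genes the block left 0.00434% higher and 0.0651% lower at the adjusted p. Division by the protein-coding sum left Mrpl17 and Mrpl41 at both limits. At an unadjusted limma p under 0.05 there were 14 higher and 2 lower members (10.3% and 6.66% of all genes). The 6004 protein-coding genes held 1228 higher and 457 lower ones. All 3 LPS values lay above all 3 untreated values in 14 members, 10 of the large and 4 of the small subunit, and below them in 3 (2 and 1). The corresponding shares were 13.1% and 9.75% of all genes, and 24.5% and 10.1% of the 6004 protein-coding genes.

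**Figure D1:**
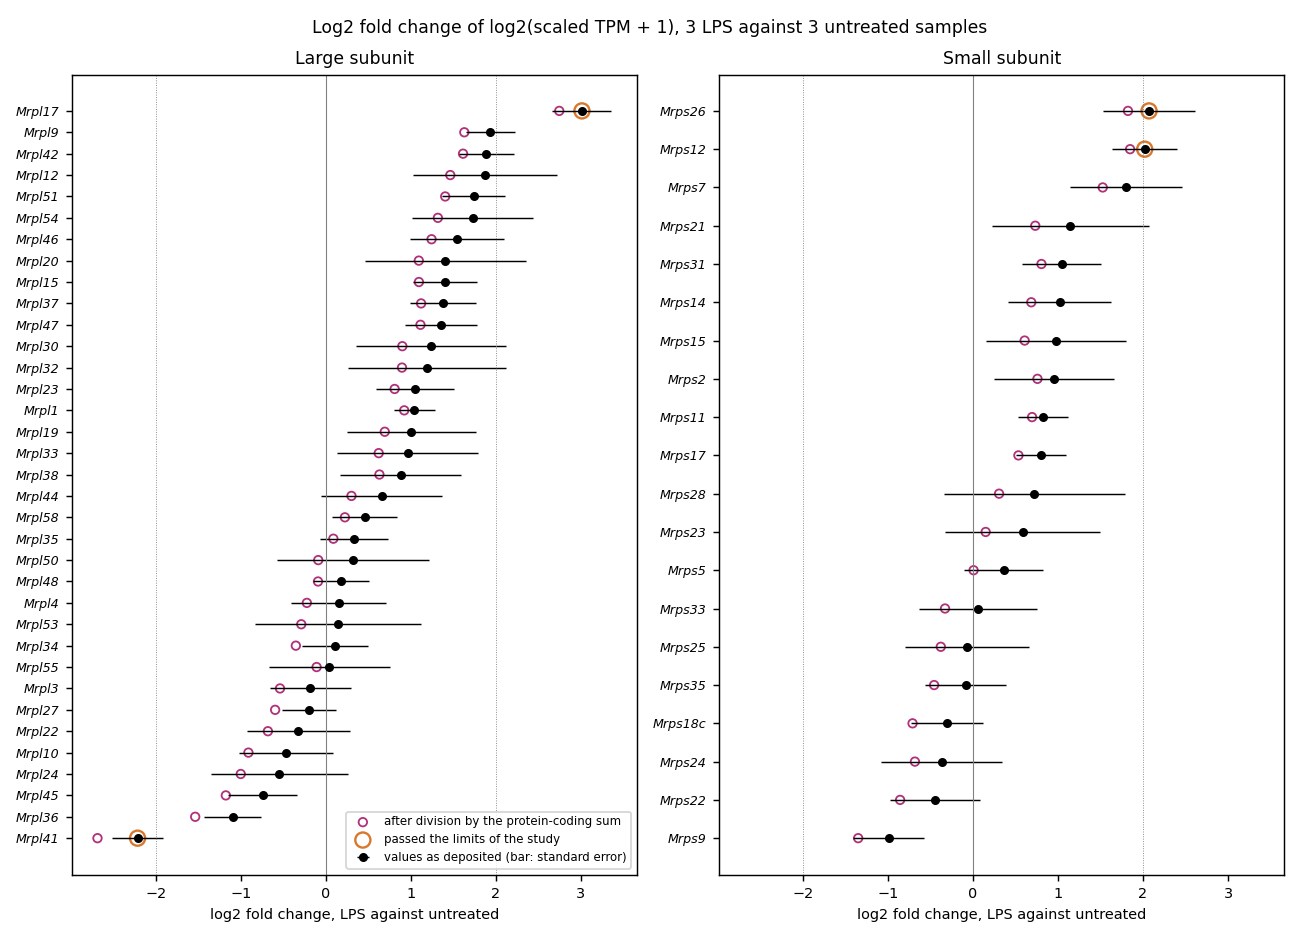
Log2 fold change of log2(scaled TPM + 1) for each member, LPS against untreated (3 samples each), large subunit on the left and small subunit on the right. Black points are the values as deposited with their standard errors, open circles the same change after division by the protein-coding sum, which lie to the left of the black points, and rings mark the 4 members past the limits of the study. Dotted lines stand at −2 and 2.

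Mrpl17 encodes a large-subunit protein with a bacterial counterpart (chr7:105452413-105460372 on GRCm39, minus strand). In untreated samples 1 to 3 it was at 0.382, 0.00844 and 0.427 scaled TPM, and in LPS samples 1 to 3 at 9.85, 6.57 and 11.8. The groups did not overlap, and every LPS value was more than 10 times every untreated one. Its log2 fold change was 3.01 (SE 0.35, limma adjusted p = 0.021, 0.088 with the replicate block, 0.0071 to 0.103 over the alternatives). It was the largest change among the members and ranked 34 of 35 by untreated and 6 of 35 by LPS mean within the large subunit.

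Mrpl9, also a large-subunit protein known from bacteria, had the tightest untreated values of the members called, at 0.787, 0.836 and 0.743, and rose to 4.83, 5.86 and 7.03 (chr3:94350594-94358437, plus strand). The groups did not overlap, and sample 2 was not the lowest LPS sample here. The log2 fold change of 1.94 (SE 0.29, limma adjusted p = 0.039) stood just under the fold limit of the study, and the adjusted p was 0.138 with the block (0.0055 to 0.196 over the alternatives). Mrpl42 and Mrpl51, which have no bacterial counterpart, lay nearby. Mrpl42 was at 0.580, 0.342 and 0.611 untreated and 6.25, 3.53 and 4.28 with LPS, with a log2 fold change of 1.89 (limma adjusted p = 0.051). Mrpl51 was at 0.522, 1.14 and 2.26 untreated and 6.52, 6.03 and 6.53 with LPS, with a log2 fold change of 1.74 (limma adjusted p = 0.079). In both the groups did not overlap, but neither passed a call rule. Mrpl12, the stalk protein that contacts translation factors, was at 1.94, 0.285 and 11.4 untreated and 15.04, 7.77 and 15.4 with LPS. Its untreated sample 3 lay above LPS sample 2, and its log2 fold change of 1.87 had a 95% interval from −0.20 to 3.95.

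Mrpl41, a large-subunit protein without a bacterial counterpart, moved the other way (chr2:24862319-24865956, minus strand). It was at 64.2, 88.7 and 54.0 scaled TPM untreated and at 15.4, 13.3 and 12.8 with LPS, so that all LPS values lay below all untreated ones. This was the highest level of any member in each untreated sample, while with LPS the gene ranked 2 of 35 in its subunit. The log2 fold change was −2.21 (SE 0.30, limma adjusted p = 0.033, 0.104 with the replicate block, 0.0097 to 0.113 over the alternatives), with a mean of 69.0 ± 17.8 untreated and 13.8 ± 1.37 with LPS (SD, n = 3). After division by the protein-coding sum the change was −2.69. A processed pseudogene, Gm6434, shares 97.8% of 372 bases of its coding sequence and is listed at 0 in all 6 samples, so how reads were divided between the 2 cannot be checked from these values. Mrpl41 made up a large part of the summed large subunit in untreated samples, which stood at 218, 219 and 247, against 235, 163 and 227 with LPS. The sums over all 55 members were 326, 277 and 323 untreated and 355, 233 and 338 with LPS and overlapped. The 41 members with a higher mean were counted on the log2(scaled TPM + 1) scale. Some of them had a lower mean in scaled TPM itself, such as Mrpl53 (9.14 untreated and 6.20 with LPS).

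Mrpl36, a small zinc-binding protein with a bacterial counterpart, was the other large-subunit member whose LPS values all lay below the untreated ones. It was at 15.5, 20.8 and 12.2 untreated and 7.32, 5.17 and 8.49 with LPS. Its log2 fold change of −1.10 (SE 0.34) had an unadjusted limma p of 0.017 and an adjusted p of 0.171, and did not pass either rule. Mrpl45, which lies at the tunnel exit and tethers the ribosome to the inner membrane, had a log2 fold change of −0.74, Mrpl24 −0.55 and Mrpl10, the base of the stalk, −0.46. None of these 3 passed, and their groups overlapped. Mrpl24 was at 14.7, 3.27 and 40.2 untreated and at 8.52, 8.63 and 8.65 with LPS, so its change depended on which untreated sample was counted, and without untreated sample 3 it became 0.23. Mrpl10 was at 27.8, 14.3 and 5.77 untreated and 9.83, 9.75 and 8.75 with LPS, and without untreated sample 1 its change became 0.04.

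In the small subunit, Mrps12, a protein of the decoding centre (chr7:28439066-28441680, minus strand), was listed at 0 in untreated samples 1 and 2 and at 0.256 in sample 3. With LPS it was at 4.86, 1.86 and 3.997. The groups did not overlap, and the log2 fold change was 2.02 (SE 0.38, unadjusted p = 0.0018, limma adjusted p = 0.063). The fold stood at the limit, and the gene was called under 8 of 18 alternatives. The call was lost without LPS sample 1 (1.81) or 3 (1.92), without untreated sample 1 or 2 (1.96 in both), and after division by the protein-coding sum (1.85).

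Mrps26, which has no bacterial counterpart (chr2:130405658-130410616, plus strand), was at 1.33, 0.119 and 0.194 untreated and at 7.38, 2.21 and 7.57 with LPS. The groups did not overlap, but LPS sample 2 stood far below the other 2 LPS samples. The log2 fold change was 2.07 (SE 0.54, unadjusted p = 0.0083, limma adjusted p = 0.118). The gene was called under 6 of 18 alternatives, and the call was lost without untreated sample 2 (1.88) or 3 (1.93) and without LPS sample 1 (1.84) or 3 (1.83). A pseudogene near-identical to part of its coding sequence, Gm9063, is listed at 0 in all samples.

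Other small-subunit members had large changes with a large spread. Mrps7, a protein of the head of the subunit, was at 2.08, 0.925 and 0.356 untreated and 12.2, 1.88 and 7.93 with LPS, a log2 fold change of 1.80 (limma adjusted p = 0.237), and LPS sample 2 fell within the untreated range. Mrps31, without a bacterial counterpart, was at 0.369, 2.55 and 0.437 untreated and 3.63, 2.32 and 2.99 with LPS, and its log2 fold change was 1.04. Mrps21, which had the highest LPS mean of the small subunit (19.5 ± 1.53, SD, n = 3), was at 13.9, 24.5 and 1.10 untreated. Its 95% interval for the log2 fold change of 1.14 ran from −1.11 to 3.39, so no direction could be read for it. Mrps9, with a bacterial counterpart, was the 1 small-subunit member with all LPS values below the untreated ones. It was at 7.03, 3.79 and 5.88 untreated and 3.301, 1.07 and 2.77 with LPS (log2 fold change −0.99, SE 0.41, limma adjusted p = 0.303).

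The remaining members with the lowest small-subunit changes were Mrps22 (−0.45) and Mrps35 (−0.09), which have no bacterial counterpart, and Mrps24 (−0.37) and Mrps18c (−0.30), which have one. None of these passed, all with overlapping groups. Mrps23 and Mrps28, which ranked 2 and 3 of 20 by untreated mean, depended on untreated sample 2. Mrps28 was at 16.4, listed at 0 and at 6.97 untreated, and at 9.59, 4.44 and 9.80 with LPS. Its log2 fold change of 0.72 became −0.46 without untreated sample 2. Mrps23 was at 8.72, 0.447 and 15.6 untreated and 7.90, 6.99 and 9.99 with LPS, and its change of 0.58 also became −0.46 without that sample.

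**Figure D2:**
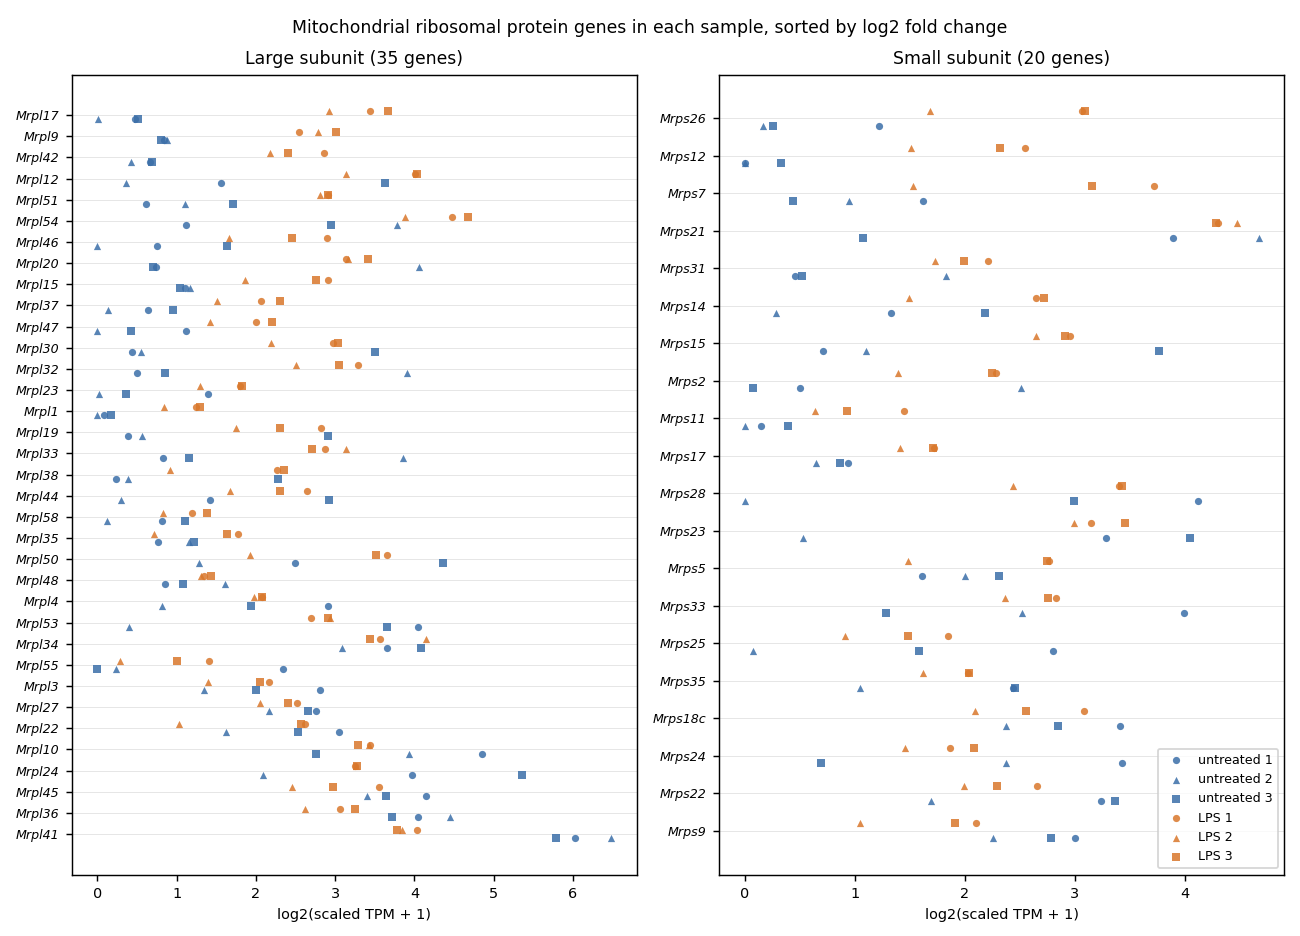
Level of each member in each sample as log2(scaled TPM + 1), with large-subunit genes on the left and small-subunit genes on the right, sorted by log2 fold change. Blue marks are untreated and orange marks LPS samples, with circles, triangles and squares for samples 1, 2 and 3. The 14 genes with LPS values above all untreated values lie mostly in the upper part of the panels, Mrpl41 lies at the bottom of the left panel, and blue marks are spread more widely than orange ones in 40 of the 55 genes.

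Of the 14 members in which the LPS values lay above the untreated ones, 8 have not been given with values above, and those shown next were chosen after their values were seen. Mrpl1, Mrpl15, Mrpl37, Mrpl46, Mrpl47 and Mrpl54 in the large and Mrps11 and Mrps17 in the small subunit had log2 fold changes between 0.80 (Mrps17) and 1.73 (Mrpl54), and none passed either call rule. Mrpl54, which had the highest LPS mean of all members, was at 1.17, 12.8 and 6.73 untreated and 21.3, 13.7 and 24.6 with LPS (limma adjusted p = 0.29996). Mrpl37 was at 0.551, 0.0948 and 0.942 untreated and 3.17, 1.84 and 3.92 with LPS (limma adjusted p = 0.139). Mrpl15, a large-subunit protein with a bacterial counterpart, was the steadiest of these when untreated, at 1.15, 1.25 and 1.05, and stood at 6.51, 2.63 and 5.78 with LPS (log2 fold change 1.40, limma adjusted p = 0.128). Of the divergent neighbours, Mrpl46 was at 0.679, listed at 0 and at 2.11 untreated and 6.45, 2.17 and 4.50 with LPS. Mrps11 was at 0.111, listed at 0 and at 0.315 untreated and 1.73, 0.558 and 0.907 with LPS. The log2 fold changes were 1.54 and 0.82, and in both genes untreated sample 2 was listed at 0 and LPS sample 2 was the lowest LPS sample.

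Members with a bacterial counterpart and those without were counted apart. Of the 35 with a counterpart, 26 had a positive change and the median was 0.95, and of the 20 without, 15 had a positive change and the median was 0.52. In the small subunit the medians were 0.82 for 13 genes and 0.05 for 7, and in the large subunit 0.98 for 22 and 0.66 for 13. Among those with a counterpart 2 rose and 0 fell at the limits of the study, and among those without 1 rose and 1 fell. A near-identical copy (at least 95% identity over at least 150 bases of coding sequence) was found elsewhere for 16 members, whose median was 0.69, against 0.80 for the 39 without. Of the 55 loci, 43 overlap another annotated gene and 25 a protein-coding gene on the opposite strand. The library kit marks strand, but the strand setting of the quantification is not given in the sources used here.

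The untreated samples differed from each other more than the LPS samples did. In untreated samples 1 to 3, 22, 26 and 18 of the 55 members were below 1 scaled TPM, in LPS samples 0, 7 and 1. As shares these were 40, 47.3 and 32.7% untreated and 0, 12.7 and 1.82% with LPS. Of the 6004 protein-coding genes with a mean of at least 1, 22.3, 26.3 and 20.6% were below 1 untreated. With LPS 6.80, 11.8 and 6.58% of them were, so a drop was not particular to the members. There were 7 members listed at 0 in at least 1 untreated sample and 0 in an LPS sample. The highest untreated value was at least 10 times the lowest in 31 members, and in 0 members among LPS samples. In 24 members the untreated range enclosed all 3 LPS values. The highest of the untreated samples was sample 1 in 19 members, sample 2 in 12 and sample 3 in 24, so no untreated sample was high throughout. Some members, chosen after their values were seen, were low in 2 untreated samples and high in the other. Mrpl20 was at 0.668, 15.7 and 0.624 untreated and at 7.81, 7.98 and 9.65 with LPS. Mrpl33 was at 0.768, 13.5 and 1.22 untreated and 6.32, 7.81 and 5.51 with LPS. In both of these large-subunit genes untreated sample 2 was the high one. Mrpl30 was at 0.347, 0.468 and 10.3 untreated and 6.82, 3.56 and 7.23 with LPS, and Mrps15 was at 0.633, 1.15 and 12.7 and 6.76, 5.27 and 6.53, with untreated sample 3 high in both.

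The order of levels differed between the groups. Untreated means in the large subunit were led by Mrpl41 (69.0 ± 17.8), followed by Mrpl24 (19.4 ± 18.9), Mrpl36 (16.2 ± 4.35) and Mrpl10 (15.96 ± 11.1, SD, n = 3 for each). All untreated values of Mrpl41 lay above those of the next 3, which did not differ beyond their spread. With LPS the lead was held by Mrpl54 (19.9 ± 5.59), ahead of Mrpl41 (13.8 ± 1.37) and Mrpl12 (12.7 ± 4.30), and the values of these 3 overlapped. In the small subunit Mrps21 led in both groups, with 13.2 ± 11.7 untreated and 19.5 ± 1.53 with LPS, and with LPS all of its values lay above those of Mrps23 (8.29 ± 1.54) and Mrps28 (7.94 ± 3.03). Untreated values of these 3 overlapped. The lowest LPS means were those of Mrpl55 (0.956 ± 0.718) and Mrps11 (1.07 ± 0.603).

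On the log2(scaled TPM + 1) scale the SD was larger among untreated samples in 40 of 55 members (72.7%), with a median SD of 0.77 untreated and 0.40 with LPS. The same held in 82.8% of the 6004 protein-coding genes with a mean of at least 1, whose median SDs were 0.76 and 0.30, so the wider untreated spread was not particular to the members. Over the 55 genes, correlations were 0.33 to 0.60 between untreated samples, 0.81 to 0.95 between LPS samples and 0.32 to 0.61 across the groups. Over the 6004 genes they were 0.72 to 0.75, 0.93 to 0.98 and 0.71 to 0.78. These correlations are across genes, which are not independent replicates and share their library, and are given as a description.

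**Figure D3:**
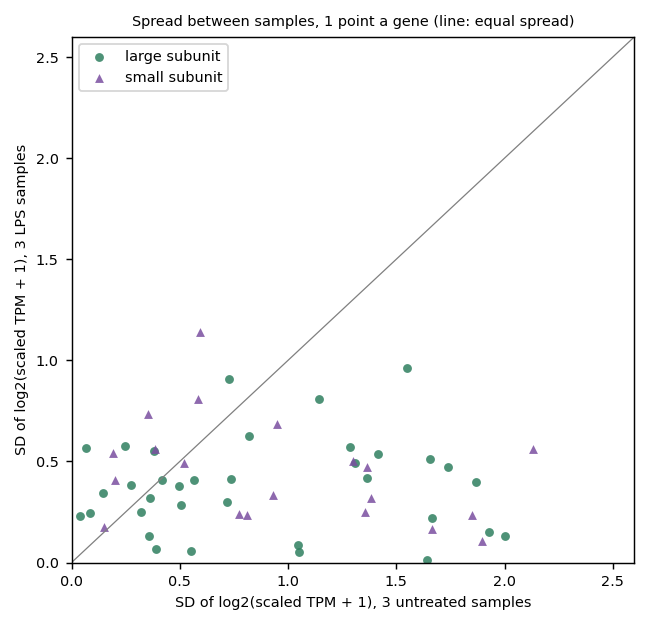
Standard deviation of log2(scaled TPM + 1) among the 3 untreated samples (horizontal axis) and among the 3 LPS samples (vertical axis), 1 point for each of the 55 members, circles for the large and triangles for the small subunit. The line marks equal spread, and 40 points lie below it.

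A second pattern ran through the samples numbered 2. LPS sample 2 had the lowest value of the LPS samples in 46 of 55 members, 27 of 35 in the large and 19 of 20 in the small subunit. The median ratio of LPS sample 2 to the mean of LPS samples 1 and 3 was 0.568 over the members, 0.577 in the large and 0.495 in the small subunit, against 0.971 over protein-coding genes with a mean of at least 1, of which 45.7% were lowest in that sample. The median member stood at 5.83, 2.63 and 4.96 in LPS samples and at 1.64, 1.14 and 2.26 in untreated samples 1 to 3. Medians of cytosolic ribosomal protein genes were 125, 63.3 and 112 with LPS and 132, 60.4 and 103 untreated. Those of nuclear respiratory chain genes were 14.8, 9.60 and 13.4 with LPS and 7.38, 4.41 and 8.14 untreated. Both were also lowest in sample 2 of each group, so the pattern was not particular to the members. As a share of the protein-coding sum, the members held 0.212, 0.145 and 0.222% untreated and 0.172, 0.0833 and 0.163% with LPS, the lowest share being that of sample 2 in each group. By this share all 3 LPS samples stood below untreated samples 1 and 3, whereas the median member was higher in every LPS sample than in every untreated one. The share was lower with LPS than in the untreated sample of the same number for all 3 numbers, while 34, 36 and 37 of the 55 members singly were higher with LPS within numbers 1, 2 and 3 on the scale as deposited. The corresponding shares of the 6004 protein-coding genes were 61.2, 61.98 and 60.3%.

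Markers of cell types moved with the same samples. Neutrophil markers summed to 10267, 27220 and 9967 untreated and 19748, 51851 and 16867 with LPS, highest in sample 2 of both groups. S100a9 alone made up 51.0 to 63.2% of the neutrophil sum. Of the 10 neutrophil markers, 3 were higher and 5 were lower with LPS for all 3 numbers, so the larger sum with LPS does not describe most of them. B cell markers (5 of 6 in the table, none at 0 throughout) summed to 1085, 280 and 1028 untreated and 796, 262 and 725 with LPS, and T or NK cell markers (8 of 8) to 126, 40.6 and 117 and to 39.9, 11.01 and 43.4, both lowest in sample 2. Single genes made up most of these sums, Ighm 49.4 to 74.5% of the B cell sum and Trbc2 51.97 to 89.3% of the T or NK cell sum. Singly, 3 of the 5 B cell and 2 of the 8 T or NK cell markers were lowest in untreated sample 2, and 5 and 7 in LPS sample 2. Macrophage markers (7 of 11) summed to 162 to 195 untreated and 266 to 414 with LPS, of which Cd68 made up 83.2 to 96.95%. Erythroid markers (5 of 6) ranged from 21.5 to 5629, highest in samples 3. Mast cell or eosinophil markers (5 of 7, Epx listed at 0 in all samples) stayed between 4.41 and 43.8, and mesothelial markers below 1. The sums of B and of T or NK cell markers were lower with LPS than in the untreated sample of the same number for all 3 numbers, whereas the macrophage sum was higher for all 3. The single markers were mixed. Of the 5 B cell markers 0 were lower and 0 higher with LPS for all 3 numbers. Of the 8 T or NK cell markers 1 was lower and 2 were higher for all 3. Of the 7 macrophage markers 3 were higher for all 3, with Mrc1 lower for all 3. The part of these cells in the values of the members was not tested. With both samples numbered 2 left out, which was chosen after the data were seen, the medians of the log2 fold changes were 0.92 and 0.75, 4 members rose at the limits of the study (1.83% of all genes), and the change of Mrpl41 was −1.998, just inside the fold limit.

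**Figure D4:**
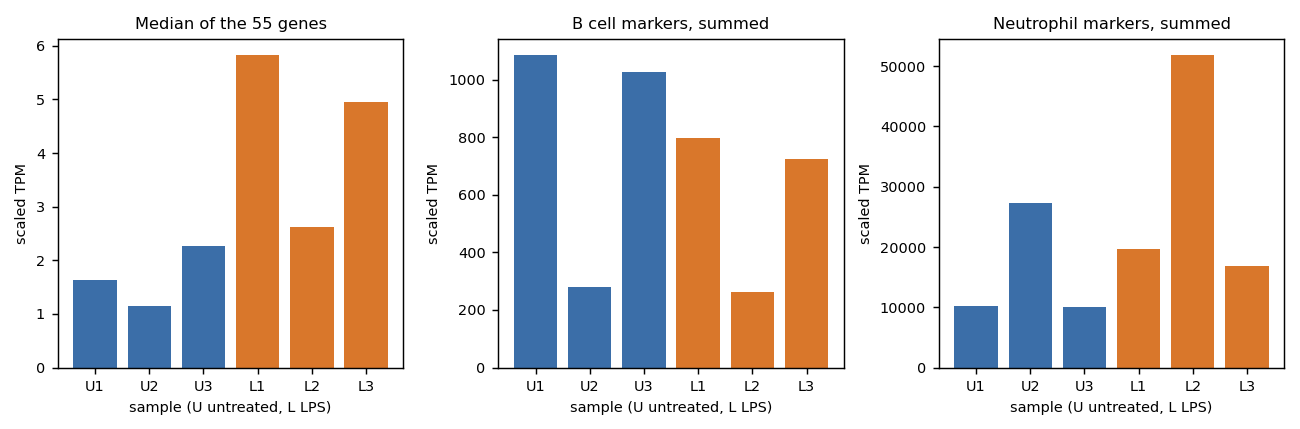
Median level of the 55 members, summed B cell markers and summed neutrophil markers in each sample, in scaled TPM (U, untreated; L, LPS; bars start at 0). Sample 2 of each group has the lowest member median and B cell sum and the highest neutrophil sum.

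Genes that work with the mitochondrial ribosome were taken from lists of their own. Of the mitoribosomal proteins without an Mrp symbol, 4 of 5 were in the table, all 4 had a positive change, and the median was 0.73. Gadd45gip1, a large-subunit protein, rose at the limits of the study, from 0.820, 0.562 and 1.04 untreated to 11.1, 3.94 and 10.4 with LPS. Its log2 fold change was 2.29 (SE 0.44, limma adjusted p = 0.064, 0.133 with the replicate block, 0.025 to 0.217 over the alternatives), and it was again lowest in LPS sample 2. Division by the protein-coding sum gave 1.98, under the fold limit, and the gene was called in 12 of 18 alternatives. Aurkaip1, of the small subunit, had the lowest change of the 4, 0.28.

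Of the genes listed as mitochondrial translation factors, not all of which start, extend, end or recycle translation, 13 of 16 were in the table. By limma 0 passed either call rule, with 2 higher and 0 lower at an unadjusted p under 0.05, and the median was 0.22. The changes ran from −0.62 in Mtfmt, which formylates the initiator methionine, to 1.38 in Mtres1. Among 24 genes of mitoribosome assembly and rRNA modification in the table the median was 0.22, and 1 rose. This was Ddx28, an RNA helicase of large-subunit assembly, which was at 0.889, 0.296 and 0.426 untreated and 6.38, 7.07 and 4.69 with LPS. Its log2 fold change was 2.20 (SE 0.32, limma adjusted p = 0.038, 0.126 with the replicate block, 0.010 to 0.1498 over the alternatives). Division by the protein-coding sum gave 1.91, under the fold limit, and the gene was called in 12 of 18 alternatives. Mterf3, which acts in mitochondrial transcription and ribosome biogenesis, had the lowest change of that list, −0.96, without passing.

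Of the mitochondrial aminoacyl-tRNA synthetases and their helpers, 16 of 20 were in the table, with a median of 0.21. Gatc, a subunit of the amidotransferase that completes glutaminyl-tRNA, rose from 0.814, 0.193 and 0.182 untreated to 5.84, 4.47 and 7.31 with LPS. The log2 fold change was 2.31 (SE 0.35, limma adjusted p = 0.039, 0.126 with the replicate block, 0.013 to 0.163 over the alternatives), and it was called in 16 of 18 alternatives, the protein-coding sum included (2.05). Lars2, the leucyl-tRNA synthetase, was at 7.37, 28.1 and 5.34 untreated and 1.44, 2.11 and 2.16 with LPS, with groups that did not overlap. Its change of −2.003 had an unadjusted limma p of 0.017 and an adjusted p of 0.168, and did not pass.

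The 2 protein groups nearest to the members were set beside them. The 57 cytosolic ribosomal protein genes had a median log2 fold change of 0.28, with 33 positive changes, 3 genes higher and 1 lower at the limits of the study, and the median was −0.20 after division by the protein-coding sum. The 58 nuclear genes of the respiratory chain and ATP synthase that were tested had a median of 0.69 (0.31 after that division), with 43 positive changes, 3 higher and 1 lower. The medians of the large and small mitoribosomal subunits, 0.88 and 0.76, were above both on the scale as deposited, and 0.62 and 0.42 after the division. These differences between groups of genes were not tested. Those past the limits of the study, named after their values were seen, were Rps15a, Rpl12 and Rps27l (higher) and Rpl31 (lower) among cytosolic ribosomal proteins. In the respiratory chain, Uqcrq of complex III, Sdhb of complex II and Ndufa12 of complex I rose and Ndufs5 of complex I fell, from 36.2, 33.0 and 34.2 untreated to 7.65, 4.03 and 6.72 with LPS. Division by the protein-coding sum ended the calls of Uqcrq, Sdhb, Ndufa12 and Rps15a, at log2 fold changes of 2.50, 1.68, 1.69 and 2.62 with unadjusted limma p of 0.0196, 0.0131, 0.0246 and 0.0121. The replicate block ended that of Ndufa12, whose unadjusted p went past the limit (limma adjusted p = 0.212 with the block). Ndufs5 kept its call under both, with −2.79 after the division, as did Rpl12, Rps27l and Rpl31.

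**Figure D5:**
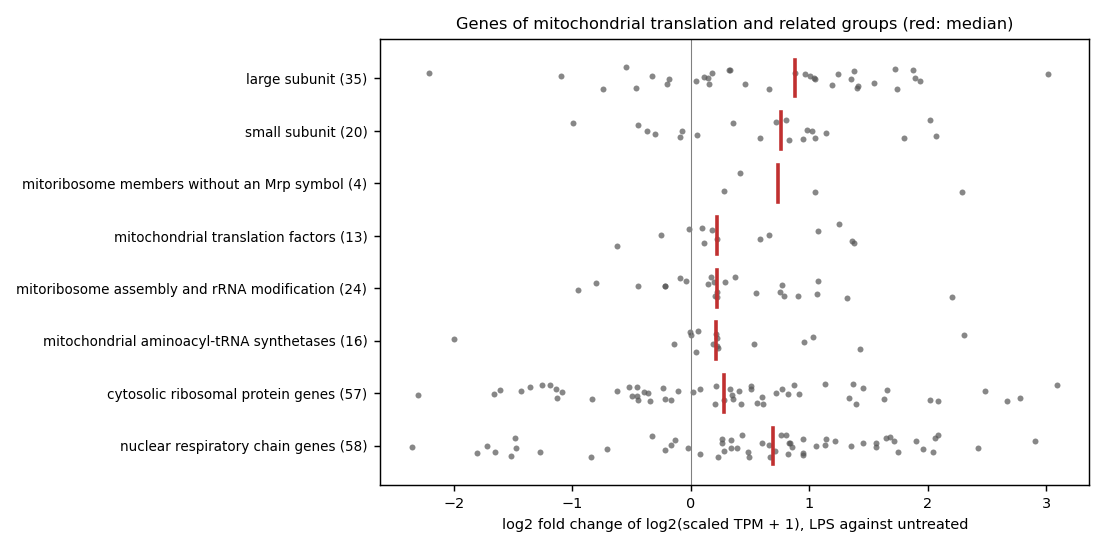
Log2 fold change of log2(scaled TPM + 1), LPS against untreated, for each gene (grey points, with vertical scatter for legibility) of the 2 subunits and of related groups, with the number of genes in parentheses and the median as a red line. The medians are 0.88 and 0.76 for the subunits, 0.73 for the proteins without an Mrp symbol, 0.21 to 0.22 for the 3 lists of translation, assembly and tRNA synthetase genes, 0.28 for cytosolic ribosomal proteins and 0.69 for the respiratory chain.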

How the data were processed

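RNA of 6 samples of cGAS-/- peritoneal neutrophils, 3 untreated and 3 with LPS, was sequenced by the authors, who trimmed reads with fastp, aligned them with STAR to GRCm39, ran Kallisto to quantify transcripts and edgeR to normalize. The submitters' processing notes also list mm10. The deposited values, although named normalized counts, are TPM, taken as the mean over a gene's transcripts and then scaled by a factor for each sample, as read from the values. Of 1395 values of untreated sample 3 with 13 or more digits, 86.5% shortened to 9 or fewer after multiplication by a whole number from 2 to 60, against 0.0717% after a random shift. This check bears on the averaging in that sample and does not show the unit. Reads per sample are unknown, and no count test was run. Protein-coding genes were found by name or identifier in GENCODE M39 (GRCm39).

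The fit used limma 3.58.1 (R 4.3.3; lmFit, eBayes with a trend, two-sided) on log2(value + 1) of the 23049 genes with a value above 0, with all 6 samples and no covariate. Benjamini-Hochberg adjustment was over all genes. Calls used the limits of the study, or an adjusted p under 0.05. Groups and sample numbers came from the titles. Deviations from the group means over the 11073 genes above 0 in all samples correlated at 0.182, 0.313 and 0.162 within numbers 1, 2 and 3. Untreated 1 with LPS 3 gave 0.122 and untreated 3 with LPS 1 gave 0.073. The other pairs across numbers, each with a sample numbered 2, gave −0.26 to −0.15. Only number 2 was thus set apart clearly, and numbers 1 and 3 were hardly told apart. The numbers were taken to pair the samples, although the labels name no shared origin. A fit with the number as a block was therefore added.

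The genes named were the members called by either rule, in each subunit the 5 highest and 5 lowest changes and the 3 highest untreated means, and in each related list the called genes, or the highest and the lowest where none was called. Others, among them Aurkaip1, Mterf3, Lars2 and Mrpl55, were chosen after their values were seen. The members and the gene lists were chosen with earlier results of these data known. From the cytosolic ribosomal proteins, found by symbol, 6 genes that are none (the S6 kinases and Rps23rg1) were left out. Copies were sought with blastn (BLAST+ 2.17.0). The fit was tested on simulated data, in which only genes at higher levels than most members were changed and both groups had equal spread. That test does not bear on changes at low levels or on the wider untreated spread. Alternatives were other pseudocounts, filters, scalings, the block, and leaving out samples. Python 3.11.15 and pandas 2.3.3 were also used.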

Additional observations from a re-analysis of the deposited data

How the results depend on the processing

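Without a count of reads, the spread between 3 samples was the only measure of precision, and most members lay at low levels. On the log2(scaled TPM + 1) scale the spread near 0 is understated, as changes are. The untreated SD was 0.28 in Mrpl17, whose highest untreated value was 50.6 times its lowest. It was 2.13 in Mrps28, at an untreated mean of 7.80 scaled TPM. The medians of the log2 fold changes stayed positive under every alternative run. They were 1.40 (large) and 1.36 (small subunit) with a pseudocount of 0.1, 0.29 and 0.23 with 5, and 0.59 to 0.92 and 0.45 to 0.95 when 1 sample was left out, lowest without untreated 2 and highest without LPS 2. The shift of the median of all genes was 0.13 with the pseudocount of 0.1, −0.20 with centring on the median, −0.05 with the protein-coding sum and −0.32 with centring on the protein-coding median. Besides the scaling itself, which sets these shifts, the causes of the changes below were not tested.

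The 3 members higher at the limits of the study became 7 with a pseudocount of 0.1, 0 with 5, 1 with either centring, 1 with the protein-coding sum and 1 with the replicate block together with that sum, and the 1 lower became 0 with a pseudocount of 5, where limma gave 15 higher and 3 lower at an unadjusted p under 0.05. The share of all genes tested that were higher moved too, from 1.69% to 3.71% with the pseudocount of 0.1, 0.56% with 5, 1.34% and 1.17% with the centrings on the median and the protein-coding median, 0.959% with the protein-coding sum and 0.946% with the block and that sum. Leaving out 1 sample gave 1 to 5 higher (5 without untreated 3 or LPS 2, 1 without LPS 3) and 1 lower throughout. The shares of all genes were then 1.03 to 1.88% higher and 1.05 to 1.63% lower. Without both samples numbered 2, an alternative chosen after seeing the data, there were 4 and 0 (1.83% and 1.45% of all genes). For the adjusted p, the 2 higher became 4 with a pseudocount of 0.1, 5 with the filter on the mean, 1 with median centring, 1 with the protein-coding sum, 6 with centring on the protein-coding median and 7 without a trend. Of all genes tested, 0.894% were higher and, in the same order, 1.3, 5.92, 0.659, 0.521, 2.19 and 2.98%, while lower genes went from 0.946% to 17.7% with centring on the protein-coding median. With the replicate block there were 0 higher and 0 lower, with or without the protein-coding sum, where limma with the block alone gave 14 and 3 at an unadjusted p under 0.05. Of all genes the block alone left 0.00434% higher and 0.0651% lower, and with that sum 0.013% and 0.204%. Leaving out 1 sample gave 0 to 2 higher and 0 to 1 lower, with 0 in both directions without untreated 3 (0.273% and 0.308% of all genes), LPS 1 or LPS 3 (0.00434% and 0.0304% for each). It gave 1 and 0 without untreated 1 (0.573% and 0.781% of all genes) or LPS 2 (0.998% and 0.56%). Without both samples numbered 2 there were 0 and 0 members, and also 0 and 0 of all genes. By limma 19 and 5 members were then at an unadjusted p under 0.05. Among members without a near-identical copy, which leaves out Mrpl41 by construction, 0 were lower by either rule. The members whose groups do not overlap, 14 higher and 3 lower, became 9 higher with the protein-coding sum, also with the replicate block, and 5 lower with centring on the protein-coding median. Leaving out 1 sample gave 14 to 22 higher (22 without untreated 3 or LPS 2) and 3 to 9 lower (9 without untreated 2, 5 without untreated 3), and leaving out both samples numbered 2 gave 28 and 10, since fewer values must separate. Shares of all genes without overlap under these alternatives are not given here, so these counts are no result about the members.

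Mrpl17 was called at the limits of the study in 17 and Mrpl41 in 16 of 18 alternatives. The block left the calls of members at those limits as they were. Of the 22 named members 16 kept their sign under all alternatives, and of 396 comparisons 353 kept the sign and the side of the limits of the study. Leaving out 1 sample reversed Mrpl10 (range −1.01 to 0.036, positive without untreated 1), Mrpl24 (−1.40 to 0.23, positive without untreated 3), Mrps23 (−0.46 to 1.296) and Mrps28 (−0.46 to 1.60), both negative without untreated 2, Mrps24 (−1.11 to 0.26, positive without untreated 1) and Mrps35 (−0.56 to 0.15, positive without untreated 1, untreated 3 or LPS 2). Leaving out both samples numbered 2 reversed Mrps23 (−0.36) and Mrps28 (−0.14). None of these passed a limit.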
